A study of Rattus norvegicus with 12 samples.

Results

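The 62 transcripts described here were lower in both groups of rat aortic smooth muscle cells treated with tumour necrosis factor alpha (TNF) than in both groups without it. They were taken from 29330 Ensembl transcripts, of which 12046 had a mean of at least 2 and under 400 FPKM (fragments scaled to transcript length and library size) over the 12 libraries. A member had a mean of log2(FPKM + 1) in the 6 hairpin libraries, all with TNF, that was at least 1.5 below the mean of the other 6 libraries, and its highest hairpin library was below the lowest of the other 6. The members were chosen by this difference between the arms in these same values, so it is given as a description and was not tested.

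The cells were primary vascular smooth muscle cells grown from explants of the media of the thoracic aorta of male rats, of the strain that the labels write as Sprague-Dailey. All 12 cultures were infected with adenovirus at passage 4, grown to 75% confluence and starved in 0.2% serum for 24 to 32 h. The Ad-GFP group received a virus carrying green fluorescent protein, and the Ad-Cklf1 group a virus overexpressing Cklf1, a chemokine-like factor. The scramble group received a virus with a short hairpin RNA of scrambled sequence (shRNA scramble) and the knockdown group a virus with a hairpin against Cklf1 (shRNA Cklf1), and both were also given 25 µg/L TNF for 24 h. Each group held 3 libraries. Whether the 3 stem from different animals or cultures is not in the labels. The spread behind each p-value is that between these libraries and may be technical. No library without TNF carried a hairpin and no library with TNF carried Ad-GFP or Ad-Cklf1, so TNF, the viral insert and a batch shared by an arm cannot be told apart in the differences between the arms.

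TNF binds receptors on vascular cells and activates NF-kappaB and stress kinases, which turn on genes for cytokines, chemokines and adhesion molecules. Smooth muscle cells of the vessel wall can also lose RNA of other genes after such a signal, through lower transcription or faster decay, and genes of the contractile apparatus are a known example in cultured smooth muscle. CKLF1 belongs to a family of secreted and membrane proteins related to chemokines, and it has been studied in vascular injury. A bulk measurement averages over all cells of a culture, so fewer cells of a type and less RNA per cell cannot be told apart. The files give transcript identifiers without gene names, and 0 of the 29330 identifiers matched the gene table used here. Members are therefore given by identifier, and their genes, positions and sequences were not analysed here. Nor could the level of Cklf and the markers of smooth muscle be checked, and the members' roles are not given.

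Without TNF the members ranged from weakly to strongly expressed, and with TNF most were low but none was lost altogether. Their mean over the 6 libraries without TNF ran from 3.95 to 573 FPKM with a median of 17.2 FPKM. Their mean over the 6 TNF libraries ran from 0.300 to 177 FPKM with a median of 3.55 FPKM. Of the 62 members, 20 had a mean under 10 FPKM without TNF, 28 were between 10 and 50 FPKM and 14 were higher. With TNF, 36 members were under 5 FPKM and 8 of them under 1 FPKM on average. No member was below 0.1 FPKM in all 6 TNF libraries, and none was listed at exactly 0 in any library, although 4 members had a TNF library below 0.01 FPKM. Added over all members, the level was 3592 to 3662 FPKM in the 3 Ad-GFP libraries and 3140 to 3288 FPKM in Ad-Cklf1. The same sum was 759 to 847 FPKM in scramble and 845 to 915 FPKM in knockdown.

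The arm difference, TNF mean minus the other mean on the log2(FPKM + 1) scale, had a median of -1.81 among members and reached -3.26. Its median over the 13698 transcripts tested (mean of at least 1 FPKM) was -0.01. In ratios of mean FPKM, the members were 2.82 to 25.1 times higher without TNF, with a median of 4.39. For 20 members the difference was -2 or less, and for 32 members the gap between the lowest library without TNF and the highest with it was at least 1 log2 unit. The smallest such gap was 0.05 log2 units and the widest 2.83. In all, 15.1% of the transcripts with a mean of 2 to 400 FPKM had their 6 TNF libraries below the other 6, which the rule demanded of every member. The member nearest the limit had a difference of -1.502, at 498 FPKM without TNF and 177 FPKM with it. The nearest transcript outside had -1.477, at 108 and 36.2 FPKM. Another 14 transcripts passed the limit but had overlapping arms. These included 3 that were listed at 0 in all 6 TNF libraries and also in at least 1 library without TNF.

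ENSRNOT00000024084 and ENSRNOT00000042699 had the largest arm differences. ENSRNOT00000024084 was at 80.6, 73.9 and 71.8 FPKM in Ad-GFP and at 96.5, 92.9 and 83.8 FPKM in Ad-Cklf1. With TNF it was at 8.99, 8.42 and 7.16 FPKM (scramble) and 8.29, 9.26 and 5.05 FPKM (knockdown). The 6 TNF libraries thus lay close together and far below the other 6, with an arm difference of -3.26 log2 units. ENSRNOT00000042699 was at 90.2, 91.7 and 89.6 FPKM in Ad-GFP and at 103, 98.2 and 95.3 FPKM in Ad-Cklf1. Its TNF libraries were at 11.9, 9.36 and 14.0 FPKM (scramble) and 14.4, 13.7 and 11.2 FPKM (knockdown), an arm difference of -2.85 log2 units. Within each arm, neither transcript passed the test for an effect of Cklf1 overexpression (limma adjusted p = 0.30 and 0.515) or of its knockdown (limma adjusted p = 0.581 and 0.396).

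**Figure D1:**
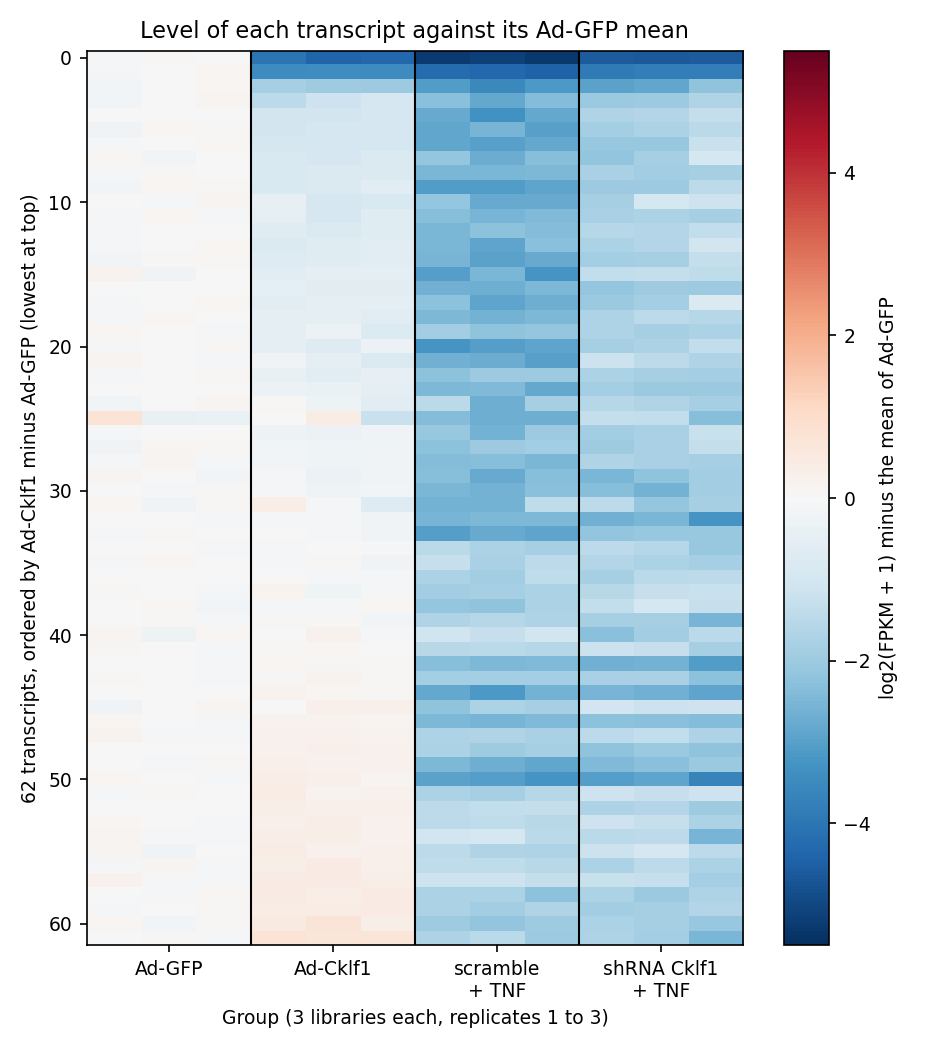
Level of each of the 62 members (rows) in each of the 12 libraries (columns, 3 per group), as log2(FPKM + 1) minus the mean of that member in Ad-GFP, ordered by the Ad-Cklf1 minus Ad-GFP difference with the lowest at the top. Blue marks levels below Ad-GFP: the 6 TNF columns are blue in every row, and the Ad-Cklf1 columns are blue in the upper rows, where 21 members passed the test as lower.

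The members differed in the order of the groups within each arm. Ad-GFP had the highest mean FPKM of the 4 groups for 40 members and Ad-Cklf1 for 22. Scramble had the lowest mean for 47 members and knockdown for 15. The most frequent order, highest in Ad-GFP and lowest in scramble, was that of 36 members. From Ad-GFP to scramble the log2 difference ranged from -5.23 to -1.12 with a median of -2.40. From Ad-Cklf1 to knockdown it ranged from -3.47 to -0.36 with a median of -1.49. These are descriptions, since the rule used both differences. For 13 members the fall from Ad-Cklf1 to knockdown was under 1 log2 unit, while no member had so small a fall from Ad-GFP to scramble.

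Against Ad-GFP, Cklf1 overexpression without TNF lowered 21 of the 62 members and raised 7 (limma, adjusted p below 0.05 over all 13698 tested). That is 33.9% lower and 11.3% higher. Of all tested transcripts 11.1% were lower and 7.80% higher, so the lower share of members was above the background and the higher share was nearer to it. Among the 12046 transcripts of a like level, 2 to 400 FPKM, the shares were 11.5% and 8.48%. The rule averaged Ad-GFP with Ad-Cklf1, so a transcript high in Ad-GFP alone could pass, and its fall with Ad-Cklf1 then came with the choice. The shares among members are thus not independent of the rule, and how far it raised them was not tested. The median log2 fold change was -0.16 for members and 0.00 for all tested. For members it was -0.08 without Ad-Cklf1 replicate 3 and -0.11 without Ad-GFP replicate 1. Among members, 4 of the falls (6.45% of the 62) and 0 of the rises reached 1 log2 unit. The share of all tested transcripts at that fold is not given here. The rule let in transcripts high in Ad-GFP alone, so the larger falls are a description. The libraries of the 2 groups did not overlap for 45 members (72.6%), where the background over all tested transcripts was 42.4%, and for each of the 28 members called.

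ENSRNOT00000081924 fell the most with Ad-Cklf1. It was at 68.6, 77.5 and 74.1 FPKM in Ad-GFP and at 3.62, 2.50 and 2.75 FPKM in Ad-Cklf1, with a log2 change of -4.24 (standard error 0.10, adjusted p = 6.62e-09 in limma). Its TNF libraries were lower still, at 0.925, 1.13 and 0.903 FPKM in scramble and 2.08, 1.99 and 2.10 FPKM in knockdown. ENSRNOT00000019192 was at 314, 333 and 358 FPKM in Ad-GFP and at 29.3, 30.9 and 29.8 FPKM in Ad-Cklf1, with a log2 change of -3.44 (standard error 0.06, adjusted p = 1.71e-09 in limma). Scramble had 16.8, 15.8 and 14.6 FPKM of it and knockdown 21.9, 22.9 and 23.1 FPKM. Both transcripts were thus high in Ad-GFP only: the gap between the lowest Ad-Cklf1 and the highest TNF library was 0.17 and 0.33 log2 units. They passed the rule through Ad-GFP, so their falls with Ad-Cklf1 came with the choice. Their p-values are not independent of it.

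The rises with Ad-Cklf1 were smaller, and 2 transcripts led them. ENSRNOT00000003686 was at 11.5, 11.9 and 10.8 FPKM in Ad-GFP and in Ad-Cklf1 at 20.1, 18.8 and 18.8 FPKM (log2 change 0.70 with a standard error of 0.19, adjusted p = 0.0307 in limma). ENSRNOT00000011906, a weakly expressed member, was at 4.36, 3.53 and 4.16 FPKM in Ad-GFP and in Ad-Cklf1 at 6.09, 7.16 and 5.28 FPKM (log2 change 0.51 with a standard error of 0.12, adjusted p = 0.0153 in limma). With TNF the former was at 1.16 to 3.39 FPKM and the latter at 0.128 to 0.508 FPKM. These rises were within the arm without TNF, and the rule kept the TNF libraries below them. Fewer than 7 rises were called whichever of the 6 libraries without TNF was left out. The count was 3 without Ad-GFP replicate 1. It was 2 without Ad-GFP replicate 2, Ad-GFP replicate 3 or any of the Ad-Cklf1 libraries. The call of ENSRNOT00000003686 was lost in each of these fits (limma adjusted p between 0.0639 and 0.0954), while its log2 change stayed at 0.67 to 0.73. The call of ENSRNOT00000011906 was lost without Ad-GFP replicate 2 or Ad-Cklf1 replicate 2 (limma adjusted p = 0.0576 and 0.0582). Over all alternatives the adjusted p ranged from 0.00274 to 0.0954 for the former and from 0.00881 to 0.169 for the latter.

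**Figure D2:**
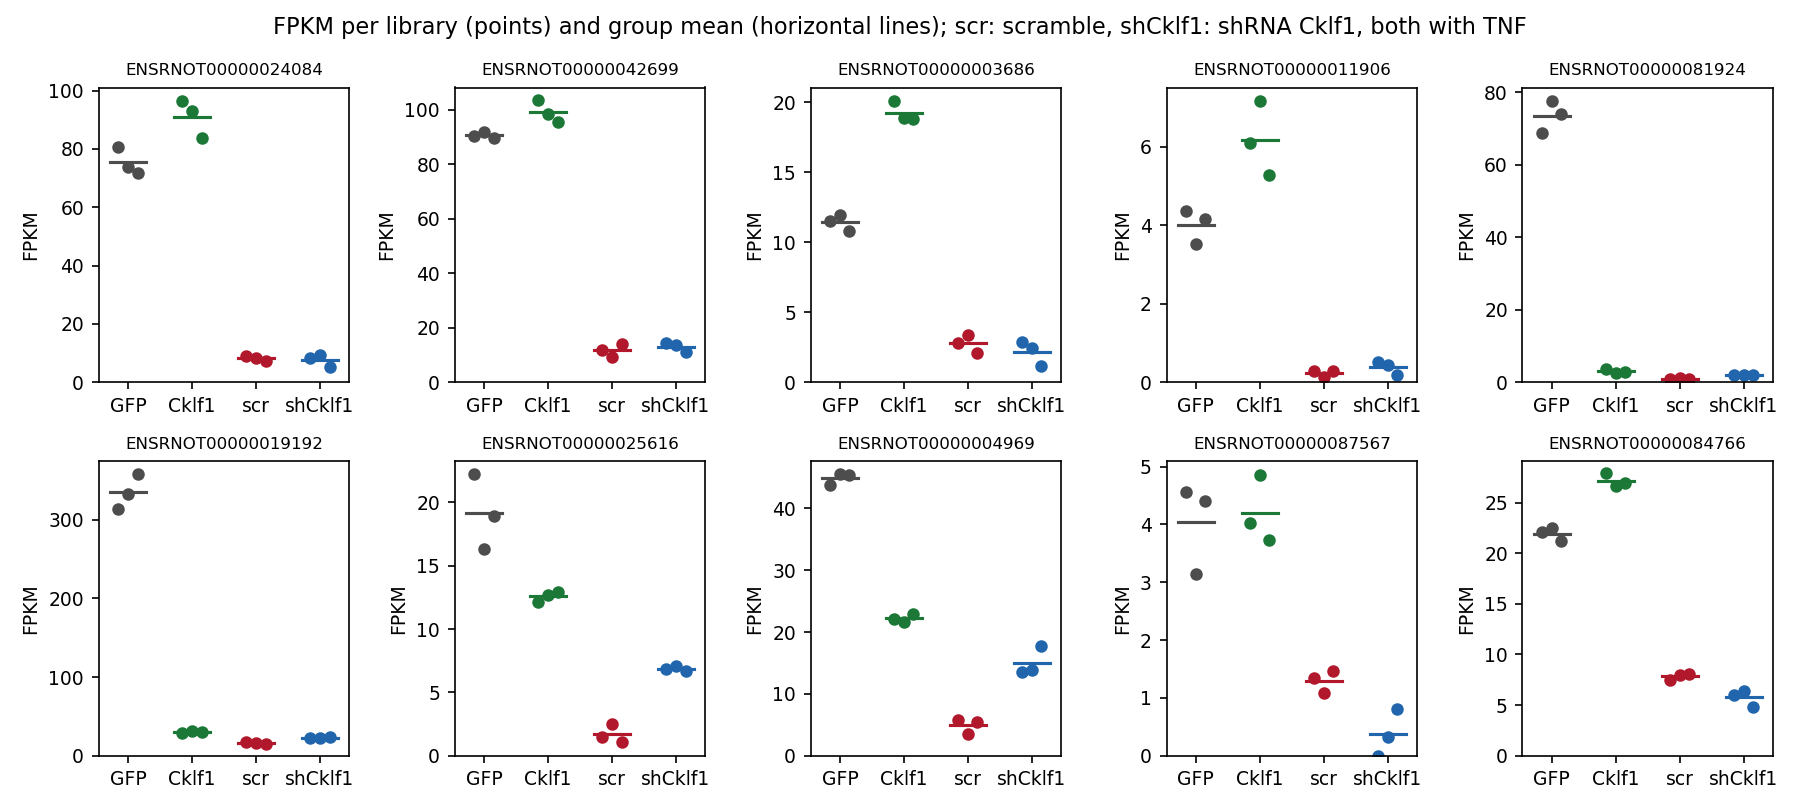
FPKM of the 10 named members in each library (points, 3 per group) with the group mean as a horizontal line, on linear axes from 0, for Ad-GFP, Ad-Cklf1, and scramble and knockdown with TNF. ENSRNOT00000081924 and ENSRNOT00000019192 are high in Ad-GFP alone, and in ENSRNOT00000025616 and ENSRNOT00000004969 the knockdown libraries lie between scramble and Ad-Cklf1. The rule kept the knockdown libraries of every member below those of Ad-Cklf1.

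Under TNF, the Cklf1 hairpin raised 31 of the 62 members against scramble and lowered 4 (limma, adjusted p below 0.05). That is 50% higher and 6.45% lower, where 16.0% of all tested transcripts were higher and 13.6% lower. The rule averaged scramble with knockdown, so a transcript very low in scramble could pass with a smaller fall in knockdown. The shares among members are thus not independent of the rule here either. The median log2 fold change was 0.41 for members and 0.01 for all tested. A rise of at least 1 log2 unit was called for 11 members (17.7%), and the share of all tested transcripts at that fold is not given here. With a pseudocount of 0.1 the median for members was 0.65. Of the 14 members at 50 FPKM or more without TNF, 2 rose and 2 fell, both near the 16.0% and 13.6% of all tested transcripts. There were 18 rises among the 28 members between 10 and 50 FPKM and 11 among the 20 below, and the difference between these levels was not tested. No background share is given for transcripts of each level, so these counts are descriptions. Knockdown and scramble did not overlap for 38 members (61.3%, background 42.4%).

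ENSRNOT00000025616 rose the most in the knockdown. It was at 1.44, 2.53 and 1.11 FPKM in scramble and in knockdown at 6.82, 7.06 and 6.66 FPKM (log2 change 1.58 with a standard error of 0.17, adjusted p = 0.000129 in limma). Without TNF it was at 22.2, 16.3 and 18.9 FPKM in Ad-GFP and at 12.1, 12.7 and 12.9 FPKM in Ad-Cklf1. ENSRNOT00000004969 was at 5.72, 3.55 and 5.51 FPKM in scramble and in knockdown at 13.6, 13.9 and 17.7 FPKM (log2 change 1.45 with a standard error of 0.14, adjusted p = 8.63e-05 in limma). Its levels without TNF were 43.8, 45.6 and 45.4 FPKM in Ad-GFP and 22.1, 21.7 and 22.9 FPKM in Ad-Cklf1. For both, the 4 groups had the same order, Ad-GFP above Ad-Cklf1, knockdown and then scramble, and no libraries of neighbouring groups overlapped. The rule demanded that every hairpin library lie below every Ad-GFP and Ad-Cklf1 library, so that part of the order came with the choice. Both members were also picked for their rise in the knockdown.

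Of the 4 falls in the knockdown, the largest was that of ENSRNOT00000087567, a weak transcript. It was at 1.35, 1.08 and 1.47 FPKM in scramble, and in knockdown at 2.58e-05, 0.318 and 0.81 FPKM, which is a wide spread (log2 change -0.78 with a standard error of 0.20, adjusted p = 0.0147 in limma). With a pseudocount of 0.1 the log2 change was -2.05 (limma adjusted p = 0.0355). It was at 3.14 to 4.85 FPKM in the 6 libraries without TNF. ENSRNOT00000084766 was at 7.45, 7.93 and 8.10 FPKM in scramble and in knockdown at 6.03, 6.40 and 4.84 FPKM (log2 change -0.39 with a standard error of 0.08, adjusted p = 0.00484 in limma). It was at 22.0, 22.4 and 21.2 FPKM in Ad-GFP and somewhat higher in Ad-Cklf1, at 27.9, 26.6 and 26.9 FPKM. In a fit of the 6 hairpin libraries alone 1 of the 4 falls was called, and that of ENSRNOT00000087567 was not (limma adjusted p = 0.0591, from a range of 0.00262 to 0.0591 over its alternatives).

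The members that fell with Ad-Cklf1 were mostly those that rose with the knockdown. Of the 21 lower with Ad-Cklf1, 19 were higher in the knockdown, 2 were not called and 0 were lower. Among all tested transcripts 1514 were lower with Ad-Cklf1, of which 715 were higher in the knockdown and 49 lower. The 19 are 30.6% of the members, where 5.22% of all tested transcripts had that pair of calls. This share too is not independent of the rule. Lower in both comparisons were 0 of the 62 members and 0.358% of all tested transcripts. Of the 34 members not called for Ad-Cklf1, 11 were higher in the knockdown, 2 lower and 21 not called. The members called in neither comparison were thus 33.9% of the 62, where the background over all tested transcripts was 60.9%. Of the 7 members raised by Ad-Cklf1, 2 were lower in the knockdown, 4 were not called and 1 was higher. As shares of the 62 members these are 3.23% higher and then lower, near the background of 3.37%, and 1.61% higher in both, which is 1 member beside a background of 0.445%. The member higher in both was ENSRNOT00000025097, singled out after its values were seen, with log2 fold changes of 0.28 and 0.52 (limma adjusted p = 0.0285 and 0.000859). Across the 62 members, the overexpression and knockdown fold changes had a Pearson r of -0.44 and a Spearman rho of -0.72, and over the 13698 tested transcripts an r of -0.34 and a rho of -0.40. These correlations are across transcripts, which are not independent, and they are descriptions. The 2 comparisons share no library, but the fit gives each transcript a common residual spread, which favours calls in both.

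**Figure D3:**
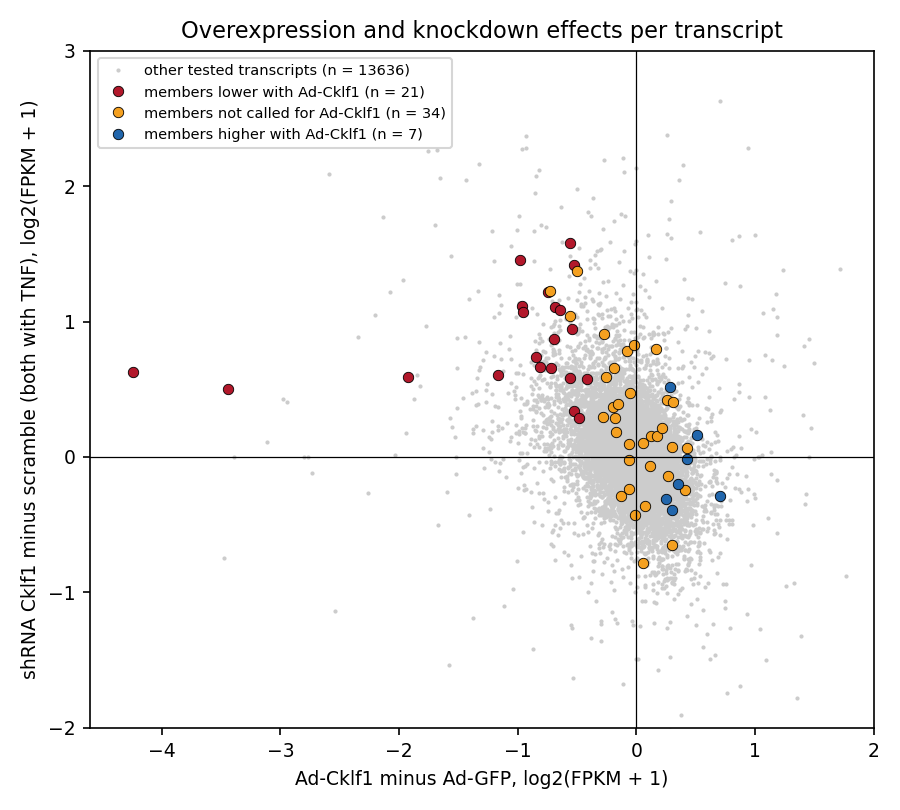
Log2 fold change of Ad-Cklf1 against Ad-GFP (x axis) and of knockdown against scramble, both with TNF (y axis), for the 62 members in colour by their Ad-Cklf1 call and for 13636 other tested transcripts in grey, of which 17 lie outside the axes. The 21 members lower with Ad-Cklf1 all lie above 0 on the y axis, at 0.29 to 1.58.

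The level of the members by library is given next for the 3 classes of Ad-Cklf1 call. The median of the 21 lower members was 18.8, 19.8 and 21.4 FPKM in Ad-GFP and 10.5, 10.7 and 11.5 FPKM in Ad-Cklf1. In scramble it was 1.46, 1.40 and 1.53 FPKM, and in knockdown 4.04, 4.23 and 6.45 FPKM. The 34 members not called began at nearly the same level, 18.9 to 20.6 FPKM in Ad-GFP, and were at 17.2 to 18.2 FPKM in Ad-Cklf1. With TNF their medians were 3.99 to 4.13 FPKM in scramble and 4.81 to 5.37 FPKM in knockdown. The 7 raised members were at 10.8 to 11.9 FPKM in Ad-GFP, 18.8 to 20.1 FPKM in Ad-Cklf1, 2.11 to 3.36 FPKM in scramble and 2.64 to 2.93 FPKM in knockdown. The Ad-Cklf1 call defines these classes, so their levels without TNF are no result, and no test was made between the classes. The rule kept every TNF library below the lowest Ad-Cklf1 library. The levels of the classes with TNF are thus not independent of the rule either, and are descriptions.

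**Figure D4:**
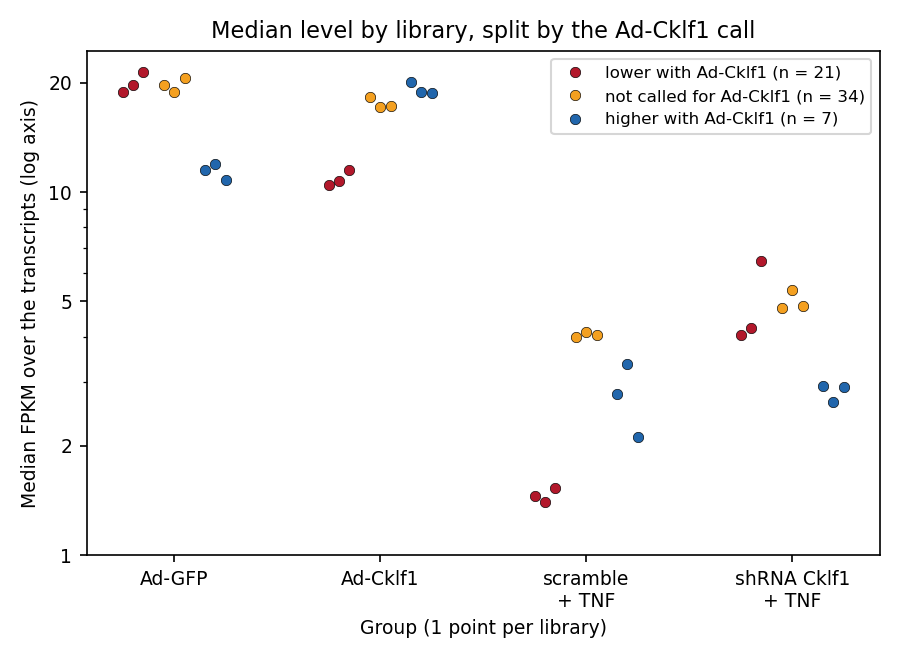
Median FPKM (log axis) over the members of each class, 1 point per library, for members lower (n = 21), not called (n = 34) or higher (n = 7) with Ad-Cklf1. In scramble the lower class lies at 1.40 to 1.53 FPKM, below the other classes, and in knockdown at 4.04 to 6.45 FPKM. The levels with TNF are not independent of the rule.

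The direct test of the difference between the effects, Ad-Cklf1 minus Ad-GFP less knockdown minus scramble, was lower for 30 members and higher for 8 (limma, adjusted p below 0.05). Among all tested transcripts 19.3% were lower and 16.0% higher, against 48.4% and 12.9% of members. The same contrast is the log2 difference from Ad-GFP to scramble less that from Ad-Cklf1 to knockdown. The rule used both of these differences, so the shares among members are not independent of it and are descriptions. The median difference was -0.57 log2 units for members and -0.01 for all tested, and with a pseudocount of 0.1 it was -0.82 for members. The largest negative values among called members were those of ENSRNOT00000081924 (-4.87, standard error 0.14, adjusted p = 5.23e-08 in limma) and ENSRNOT00000019192 (-3.94, standard error 0.09, adjusted p = 1.38e-08 in limma). The largest positive values among called members were those of ENSRNOT00000003686 (0.99, standard error 0.27, adjusted p = 0.0177 in limma) and ENSRNOT00000087567 (0.83, standard error 0.28, adjusted p = 0.0408 in limma). With a pseudocount of 0.1 the last value was 2.11 and was not called (limma adjusted p = 0.0927). Its call was also lost without 10 of the 12 libraries, each left out in turn, and held without Ad-GFP replicate 1 and without knockdown replicate 3 (adjusted p of 0.00622 to 0.112 over all its alternatives, limma). When Ad-GFP replicate 2, Ad-GFP replicate 3, any Ad-Cklf1 library, scramble replicate 1 or scramble replicate 2 was left out, 5 members were higher in place of 8.

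Libraries differed in ways that touch these results. Depth, estimated from the steps of the lowest values and given relative to Ad-GFP replicate 1, was 0.973 to 1.29 in Ad-GFP, 0.722 to 0.829 in Ad-Cklf1, 0.616 to 0.66 in scramble and 0.616 to 0.758 in knockdown. The depth was highest in Ad-GFP, so it moved with the overexpression comparison. It was also lower in the TNF groups, although Ad-Cklf1 and knockdown overlapped. Its part in the choice of members and in these comparisons was not tested. Between replicates the members varied more with TNF, with a median SD of 0.15 log2 units in scramble and 0.22 in knockdown against 0.10 in Ad-GFP and 0.07 in Ad-Cklf1. Over all tested transcripts it was 0.09 in scramble and 0.11 in knockdown against 0.09 in Ad-GFP and 0.08 in Ad-Cklf1. The rule chose members that were low with TNF, and the part of their level in this spread was not tested. Knockdown replicate 3 stood apart from its group: over the members its median distance from the mean of the other 2 was 0.31 log2 units, where the other libraries were at 0.06 to 0.22 within their groups. It was the highest of its 3 libraries for 24 members and the lowest for 27. It was the highest for 13 of the 21 members lower with Ad-Cklf1 and the lowest for 19 of the 34 not called. ENSRNOT00000074292, singled out after its values were seen, was at 42.9 and 53.9 FPKM in knockdown replicates 1 and 2 and at 99.0 FPKM in replicate 3, just below its 103 to 113 FPKM in Ad-Cklf1. Without that library the rule gave 95 members, 59 of them among the 62. For the 62, leaving it out gave 30 rises and 4 falls in the knockdown, and 19 members lower with Ad-Cklf1 and higher in the knockdown.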

How the data were processed

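Poly(A)-selected RNA was sequenced in 12 libraries, 4 groups of 3, grouped by the sample titles. The authors deposited 1 FPKM value per Ensembl transcript and library; the unit was read from the file headers, which use a Cufflinks column name, and from the values. The submitters' processing notes name the build Rnor 6.0, and what aligned and quantified the reads, on which annotation, is not given in the sources used here. Such values share reads out between isoforms, so a transcript can change when reads are assigned to another isoform. Depth was only estimated: the commonest ratio to Ad-GFP replicate 1, over values of 0.001 to 0.1 FPKM, was inverted.

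Values were transformed to log2(FPKM + 1), which understates changes of low transcripts. The 13698 transcripts averaging at least 1 FPKM were fitted with limma 3.58.1 (R 4.3.3), all 12 libraries together and a mean for each group, with Benjamini-Hochberg adjustment per comparison; all 62 members were tested, as the rule demanded a mean of 2 FPKM. The test was checked on simulated data. The members and lists were chosen with earlier results of these data known. Named members are the 2 largest falls between the arms and, per tested comparison, the first 2 called in each direction by fold change, with groups that do not overlap in the overexpression and knockdown comparisons. Gene lists and cell type markers were not used, since 0 identifiers matched the table of 47357 genes. Alternatives were another pseudocount, no filter, scalings between libraries, a replicate block, a trend with robust prior, a fold minimum, fits of 6 libraries, single libraries left out and other limits of the rule.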

Additional observations from a re-analysis of the deposited data

Results flagged for a closer look

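The effect of Cklf1 overexpression without TNF differed from that of the knockdown with TNF by direct test in the 4 members named for that comparison. These 4 had the largest values in each direction among called members. The rule used both log2 differences that make up this contrast, so the values are not independent of the rule and are descriptions. The difference, overexpression effect minus knockdown effect, was 0.99 log2 units for ENSRNOT00000003686 and 0.83 for ENSRNOT00000087567. The call of ENSRNOT00000087567 held in 5 of 18 alternatives. The difference was -4.87 for ENSRNOT00000081924 and -3.94 for ENSRNOT00000019192. Overexpression and knockdown are opposite manipulations, so changes of opposite sign give such a difference even where Cklf1 acts alike in both arms. The manipulations and the TNF treatment both differed between these effects, so their parts cannot be told apart.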

How the results depend on the processing

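The rule gave 62 members as stated, 116 with a pseudocount of 0.1, 223 at an arm difference of -1 or less, 20 at -2 or less and 33 with a mean of at least 10 FPKM; leaving out each library gave 57 to 95, the most without knockdown replicate 3. Rises with Ad-Cklf1 numbered 3 with a pseudocount of 0.1, 2 without the filter, 12 in the fit of 6 libraries and 2 to 9 without single libraries. Members with a higher difference between the effects numbered 5, 4 and 5 to 9 with that pseudocount, without the filter and without single libraries, and falls in the knockdown 1 in the fit of 6 libraries; the cause was not tested. A fold of at least 1 log2 unit left 0 rises and 4 falls with Ad-Cklf1, and 11 rises and 0 falls in the knockdown. It left 0 higher differences and 0 members both lower with Ad-Cklf1 and higher in the knockdown. No shares of all tested transcripts at that fold are given here, so these counts are descriptions. In sets chosen after seeing the data, 223 transcripts at an arm difference of -1 or less held 20 rises (8.97%) and 66 falls (29.6%) with Ad-Cklf1. Of all tested transcripts 7.80% rose, a share near that of the 223, and 11.1% fell. The knockdown gave 100 rises (44.8%, background 16.0%) and 15 falls (6.73%, background 13.6%). Differences were higher for 20 (background 16.0%) and lower for 109 (background 19.3%). Lower with Ad-Cklf1 and higher in the knockdown were 49 (background 5.22%). These shares too are not independent of the rule. In the 76 transcripts with overlap allowed, 24 fell with Ad-Cklf1 (31.6%, background 11.1%) and 35 rose in the knockdown (46.1%, background 16.0%). Leaving out single libraries gave 15 to 23 falls with Ad-Cklf1, 25 to 31 rises in the knockdown and 13 to 20 members with both. The replicate block gave 6 rises and 21 falls with Ad-Cklf1, and 30 rises and 6 falls in the knockdown; deviations of libraries with a shared number had correlations of -0.011 to 0.074, and for 6 of 12 libraries the best match had the same number, so the numbers are not taken to pair them. Under the block the difference of ENSRNOT00000087567 was not called (limma adjusted p = 0.0517), nor was that of ENSRNOT00000003686 without the filter (limma adjusted p = 0.0549). None of the 8 members named in a tested comparison reversed there in any alternative run; the filter, the block, the trend and the fit of 6 libraries leave fold changes unchanged by construction. Values of low members with TNF are limited by depth.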

Other observations

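The mirrored rule, higher by at least 1.5 log2 units in both TNF-treated groups without overlap, found 185 transcripts. In these, Ad-Cklf1 lowered 24 (13.0%) and raised 10 (5.41%), and the knockdown raised 62 (33.5%) and lowered 38 (20.5%; limma, adjusted p below 0.05). Of all tested transcripts Ad-Cklf1 lowered 11.1% and raised 7.80%, and the knockdown raised 16.0% and lowered 13.6%. Of the 62 members Ad-Cklf1 lowered 33.9% and raised 11.3%, and the knockdown raised 50% and lowered 6.45%. The difference between these sets was not tested. Each rule averaged the groups within an arm, so the shares in both sets are not independent of how they were chosen.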
